A study of Mus musculus with 16 samples.

Results

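Endothelial cells (ECs) share with blood cells a small set of DNA-binding proteins, and 10 genes of that set were followed here in RNA-seq libraries of mouse bone ECs. The genes were chosen by symbol, with earlier results of these data known. They comprised the ETS factors Erg, Fli1, Ets1, Ets2 and Elk3 and the zinc finger factor Gata2. The helix-loop-helix factors Tal1 and Lyl1, their LIM-only partner Lmo2 and the MADS box factor Mef2c made up the rest. All 10 were found in each of 3 tables, among 38926 rows in the first and in the last and 21603 rows in the second. All 10 had a mean of at least 1 FPKM (fragments scaled to transcript length and library size) in every comparison and were tested.

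The tables hold 16 libraries of FACS-sorted bone ECs on a C57BL/6 background. In the first table, 3 libraries of metaphyseal ECs (mpECs) and 3 of diaphyseal bone marrow ECs (bmECs) are labelled wildtype and were, by the study's methods, sorted by the fluorescent proteins of a Cdh5-mT/nG reporter, which marks cells that use the Cdh5 promoter. In the second, 3 control libraries (Yap1flx/flx and Wwtr1flx/flx, Cdh5CreERT2 negative) stand beside 3 libraries labelled Yap1/Taz iΔEC (the same floxed alleles, Cdh5CreERT2 positive), all at postnatal day 21. In the last, 2 control libraries (Lats2flx/flx, Cdh5CreERT2 negative) stand beside 2 Lats2 iΔEC libraries (the same floxed alleles, Cdh5CreERT2 positive), with no age in the labels. Cdh5CreERT2 is a tamoxifen-inducible recombinase driven by the Cdh5 promoter, Wwtr1 encodes Taz, and Lats2 is a Hippo pathway kinase that restrains Yap1 and Taz. The controls carry both floxed alleles but no recombinase, so an effect of Cre itself and an effect of the deletion cannot be told apart. The number of animals behind a library is not given in the sources used here, so p-values measure the spread between libraries, which may in part be technical.

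ETS proteins bind a GGAA core, and ERG and FLI1 keep endothelial genes such as Cdh5 active. GATA2 binds GATA motifs, and TAL1 or LYL1 pairs with E proteins and is joined through LMO2 and LDB1 to GATA factors, a complex known from blood stem cells, red cell precursors and endothelium. MEF2C acts downstream of growth factor and flow signals in ECs and is held in check by class IIa histone deacetylases. Because sorted bone ECs sit among blood-forming cells that use the same factors, marker sums of those cells are given beside each comparison.

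The promoters of 3 members are shown because the results below turn on these genes: Lyl1 and Gata2 are the members that fell in the Lats2 iΔEC libraries, and Erg is the ETS factor best known for endothelial identity. Each run covers the 250 bases before 1 RefSeq start site on GRCm38.p6, the one at the annotated start of the gene, in the direction of the gene, with every GGAA (or TTCC, its reverse complement) and every AGATAA (or TTATCT) in capitals.
Lyl1, chr8:84701207-84701456, plus strand: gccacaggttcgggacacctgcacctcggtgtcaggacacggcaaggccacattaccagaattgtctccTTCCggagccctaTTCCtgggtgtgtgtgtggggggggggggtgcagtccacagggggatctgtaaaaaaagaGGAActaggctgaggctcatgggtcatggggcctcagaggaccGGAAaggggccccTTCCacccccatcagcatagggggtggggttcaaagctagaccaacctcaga
Gata2, chr6:88193641-88193890, plus strand: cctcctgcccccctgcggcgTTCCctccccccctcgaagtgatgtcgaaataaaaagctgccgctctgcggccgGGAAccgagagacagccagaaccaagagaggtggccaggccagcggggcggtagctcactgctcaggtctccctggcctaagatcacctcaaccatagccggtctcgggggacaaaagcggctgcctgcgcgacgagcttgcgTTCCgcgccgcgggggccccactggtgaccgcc
Erg, chr16:95586594-95586843, minus strand: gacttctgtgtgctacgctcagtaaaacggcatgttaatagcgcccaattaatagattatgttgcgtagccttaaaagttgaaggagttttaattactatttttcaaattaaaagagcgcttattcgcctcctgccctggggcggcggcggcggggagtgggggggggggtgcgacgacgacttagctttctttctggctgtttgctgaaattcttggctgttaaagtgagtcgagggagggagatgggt
These windows overlap no annotated exon. The Lyl1 window held 5 ETS cores, 2 of them within the longer form CCGGAA, with first bases 181 and 67 bases before the start. The Gata2 window held 3 cores and the Erg window 0, and AGATAA was in 0 of the 3 windows. Erg and Gata2 have further RefSeq promoters inside the gene: those of Erg held 4 GGAA cores (chr16:95530366-95530615) and 2 cores with 1 AGATAA (chr16:95459349-95459598), and that of Gata2 held 1 core (chr6:88198414-88198663) and lay wholly within annotated exon. Across 32851 RefSeq promoters of the same length and read on both strands, GGAA was found in 93.4%, CCGGAA in 12.0% and AGATAA in 9.99%. The GGAA core lies inside CCGGAA, so those counts overlap. A promoter entry was matched for 7 of the 10 members. The Tal1 window at its gene start (chr4:115056176-115056425) held 1 AGATAA and 4 GGAA cores. A match to a few letters is a description of the window and not a binding site.

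Recovered read totals, worked back from the FPKM values and gene lengths, were 11122353 to 14756086 per library in the first table, 4889919 to 7162896 in the second and 4732638 to 7073919 in the last. The targeted genes were read first. Wwtr1, which encodes Taz, measured 10.01, 9.88 and 10.3 FPKM in the control libraries and 15.3, 19.7 and 19.5 FPKM in the libraries labelled Yap1/Taz iΔEC. It rose, against its label (log2 fold change 0.78, SE 0.12, limma adjusted p = 0.0272), although without a filter on low values or without a trend the adjusted p was 0.0679 and 0.0570. Without control library 2 or 3, or without library 2 or 3 of the labelled iΔEC group, it was 0.0715 to 0.180. Yap1 measured 1.23 ± 0.34 and 1.15 ± 0.25 FPKM (SD, n = 3). These values count reads from all exons, so reads outside a deleted part remain in them. Lats2 measured 23.4 and 24.0 FPKM in its controls and 19.2 in both Lats2 iΔEC libraries (log2 fold change -0.29, limma adjusted p = 0.125), and Gm49361 on the same strand takes in 42.4% of the bases in its exons. By quantitative PCR the study reported significantly lower Yap1 and Wwtr1 transcripts in sorted Yap1/Taz iΔEC bone ECs, with weaker Yap1 immunostaining. It also reported significantly lower Lats2 transcripts in Lats2 iΔEC bone ECs. The 6 endothelial markers (Cdh5, Pecam1, Kdr, Tek, Tie1 and Emcn) were present in every group, with summed levels of 359 to 1469 FPKM. Blood transcripts were present too: Hbb-bs was the most abundant gene of each mpEC and bmEC library, at 10589 to 22051 FPKM. In the Lats2 table Gm23935 was the most abundant, at 6093 and 7629 FPKM in controls and 15846 and 26666.5 FPKM in Lats2 iΔEC libraries. The FPKM of all genes there summed to 342227 and 341116 in controls and 382425 and 444945 in Lats2 iΔEC libraries.

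The members covered a wide range of levels, and their order differed between tables. FPKM is per length, so levels of different genes may be set side by side within a table. Ets1 was the highest member in mpECs at 200 ± 8.29 FPKM and in bmECs at 262 ± 20.01 FPKM (SD, n = 3), above 97.7% of all genes tested in that table. In mpECs the order below it was Elk3, Fli1, Ets2, Mef2c, Lyl1, Lmo2, Erg, Gata2 and Tal1, and only Elk3 and Fli1 overlapped as neighbours. In bmECs the order was Fli1, Ets2, Elk3, Lyl1, Mef2c, Erg, Lmo2, Gata2 and Tal1, with overlaps between Fli1 and Ets2 and between Lyl1 and Mef2c. Tal1 was the lowest member of that table, at 2.88 ± 0.27 and 2.99 ± 0.43 FPKM (SD, n = 3), so Ets1 stood 69.3-fold and 87.7-fold above it by group means.

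In the control and Yap1/Taz iΔEC libraries the order was another. Lmo2 came first, at 137 ± 7.90 FPKM in controls and 146 ± 13.3 FPKM in the libraries labelled Yap1/Taz iΔEC (SD, n = 3), and the highest member stood only 6.29-fold and 5.22-fold above the lowest. Tal1 measured 24.4 to 32.7 FPKM over those 6 libraries, against 2.51 to 3.69 FPKM over the other 10. Gata2 was at 15.1 to 34.1 FPKM there and at 4.37 to 7.50 FPKM in mpECs and bmECs, but Lats2 controls reached 31.5 and 32.2 FPKM. Erg was at 32.2 to 40.6 FPKM in the second table, against 9.002 to 14.2 FPKM in mpECs and bmECs. The order in these controls was Lmo2, Lyl1, Ets1, Fli1, Ets2, Elk3, Erg, Mef2c, Tal1 and Gata2, and the neighbours Lyl1 and Ets1, Fli1 and Ets2, Ets2 and Elk3, Mef2c and Tal1, and Tal1 and Gata2 overlapped. In the libraries labelled Yap1/Taz iΔEC it was Lmo2, Ets1, Ets2, Elk3, Fli1, Lyl1, Erg, Tal1, Gata2 and Mef2c, where the ranges of neighbours were apart only between Lmo2 and Ets1, between Elk3 and Fli1, and between Erg and Tal1. In the Lats2 table Ets1 was again first, followed in controls by Ets2, Elk3, Lmo2, Fli1, Gata2, Mef2c, Erg, Lyl1 and Tal1, of which only Lmo2 and Fli1 overlapped as neighbours. In Lats2 iΔEC libraries the order was Ets1, Elk3, Ets2, Fli1, Lmo2, Mef2c, Gata2, Erg, Tal1 and Lyl1, with overlaps between Ets1 and Elk3 and between Ets2 and Fli1. The tables were normalized separately, so these levels are set side by side without a test. Markers of blood progenitors differed between the tables as well: Myb averaged 104 FPKM in the control libraries of the second table, 4.08 in mpECs and 3.12 in Lats2 controls, and Flt3 averaged 52.6, 0.40 and 0.25 FPKM. Of the macrophage list, C1qa averaged 441, 6.89 and 1.19 FPKM, Csf1r 49.5, 2.83 and 5.88 FPKM and Cd68 96.9, 21.6 and 4.48 FPKM. Lyz2, at 567, 1380 and 443 FPKM, and Mrc1, at 124, 98.8 and 144 FPKM, did not follow them. Macrophage sums, over the 6, 5 and 5 listed genes present, were 1185 to 1656, 1140 to 1974 and 544 to 652 FPKM. The progenitor marker Kit averaged 28.8, 7.32 and 12.7 FPKM in the same 3 groups, and progenitor sums were 320 to 355, 28.5 to 44.7 and 21.4 to 26.0 FPKM. The part of these cells in the levels of the members was not tested.

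**Figure D1:**
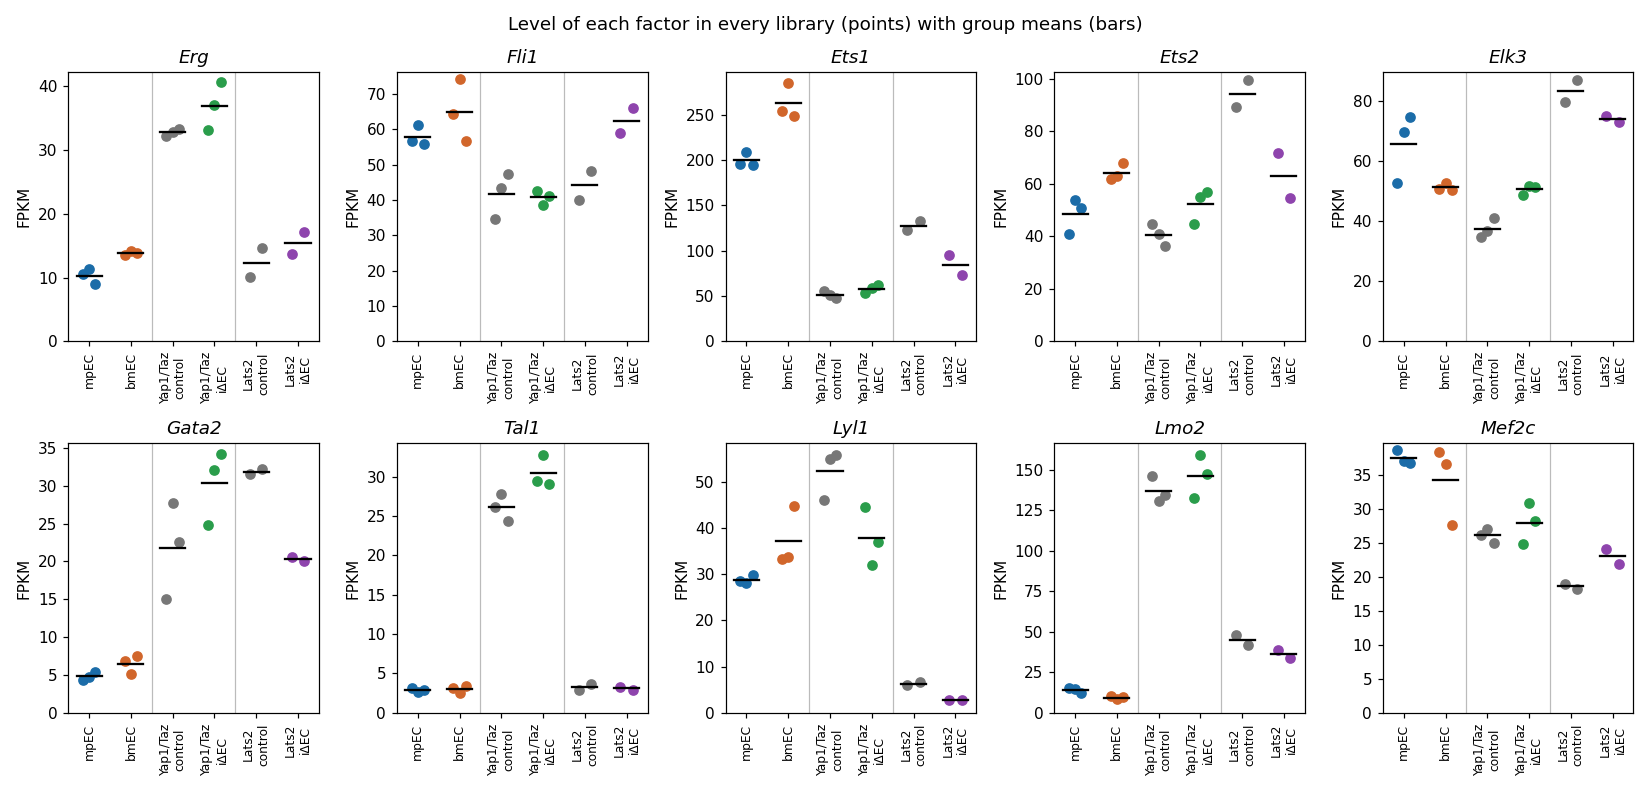
FPKM of each factor in every library (points) with group means (bars); grey lines part the 3 separately normalized tables, and each panel has its own axis from 0. Tal1 and Lmo2 stand highest in the 6 libraries of the middle table, Ets1 in mpECs and bmECs, and the Gata2 and Lyl1 points of the Lats2 iΔEC libraries lie below those of their controls.

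The comparison of bmECs with mpECs asks how ECs of the marrow cavity differ from those near the growth plate. Erg, Ets1 and Ets2 rose in bmECs by about 1.3-fold and Lmo2 fell, and the other 6 members did not pass the test. That makes 4 of 10 members called at an adjusted p under 0.05, where 23.5% of the 11422 genes tested were called, so the members' count is to be read against a high background. By direction 3 members were called higher (13.0% of all genes) and 1 lower (10.5%). The median log2 fold change of the members was 0.25, that of all genes -0.00068. The groups of 6 members did not overlap, as for 41.3% of all genes. At an unadjusted p under 0.05 there were 7 members, against 36.1% of all genes. Under a stricter rule, an adjusted p below 0.01 and a log2 fold change beyond 0.5 either way, there were 0 members, against 11.7% of all genes.

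Erg (ENSMUSG00000040732, chr16:95359169-95586593, minus strand), which keeps endothelial junction genes active, measured 10.5, 11.3 and 9.002 FPKM in mpECs and 13.5, 14.2 and 13.8 FPKM in bmECs. Every bmEC library was above every mpEC library. The log2 fold change was 0.40 (SE 0.10, 1.32-fold on FPKM + 1, limma adjusted p = 0.0257). Between 303 and 565 recovered reads lay behind each value. Without mpEC library 3, or without any one bmEC library, the adjusted p was 0.0625 to 0.0860.

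Ets1 (ENSMUSG00000032035, chr9:32636221-32757820, plus strand), an ETS factor of sprouting ECs and of lymphocytes, measured 195, 209 and 194 FPKM in mpECs and 254, 285 and 248 FPKM in bmECs. The groups did not overlap, and the log2 fold change was 0.39 (SE 0.09, 1.31-fold, limma adjusted p = 0.0134). The study placed Ets1 in gene panels drawn from these same libraries, so its direction is not independent evidence. The call was lost under quantile normalization (adjusted p = 0.0522), without mpEC library 3 (0.0584) and without bmEC library 2 (0.0556).

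Ets2 (ENSMUSG00000022895, chr16:95702075-95721051, plus strand), a close relative of Ets1 that responds to Ras signals, measured 41.0, 53.7 and 50.7 FPKM in mpECs and 61.7, 62.8 and 67.7 FPKM in bmECs. All bmEC values lay above all mpEC values, with mpEC library 1 the lowest. The log2 fold change was 0.40 (SE 0.11, 1.32-fold, limma adjusted p = 0.0332). Over 15 other settings the Ets2 call was kept in 7, against 11 for Erg, 12 for Ets1 and 13 for Lmo2. Leaving out mpEC library 1 or 3 or any bmEC library gave adjusted p = 0.0526 to 0.0916, quantile normalization 0.109 and no filter on low values 0.0666.

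Fli1 (ENSMUSG00000016087, chr9:32422204-32542861, minus strand), the nearest relative of Erg and a megakaryocyte factor too, averaged 57.9 ± 2.87 FPKM in mpECs and 65.0 ± 8.88 FPKM in bmECs (SD, n = 3), with overlapping groups and a limma adjusted p of 0.342. Elk3 (ENSMUSG00000008398, chr10:93247414-93311135, minus strand), a ternary complex factor that represses its targets until MAP kinase signals arrive, measured 52.8, 69.7 and 74.5 FPKM in mpECs and 50.7, 52.6 and 50.3 FPKM in bmECs. The bmEC libraries lay close together just below mpEC library 1 (log2 fold change -0.34, SE 0.13, limma adjusted p = 0.0948). Without that library the adjusted p was 0.00656, and with estimated library weights it was 0.0242. These were the only 2 of 15 other settings under 0.05, and the adjusted p reached 0.271 among the rest. Of the bases of its exons, 6.95% overlap Cdk17 on the other strand, and whether the counting used strand is not given in the sources used here.

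Lmo2 (ENSMUSG00000032698, chr2:103957986-103981878, plus strand), the bridge that joins Tal1 or Lyl1 to Ldb1 and GATA factors, measured 15.1, 14.5 and 12.1 FPKM in mpECs and 10.2, 8.20 and 9.73 FPKM in bmECs. The groups did not overlap. It fell in bmECs by 0.52 on the log2 scale (SE 0.12, 0.696 of the mpEC level of FPKM + 1, limma adjusted p = 0.0158). Leaving out mpEC library 2 or bmEC library 2 gave adjusted p = 0.0526 and 0.0525.

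The factors that LMO2 joins did not pass the test. Lyl1 (ENSMUSG00000034041, chr8:84701457-84704715, plus strand) measured 28.6, 28.2 and 29.8 FPKM in mpECs and 33.2, 33.7 and 44.7 FPKM in bmECs, with bmEC library 3 well above the rest (log2 fold change 0.34, SE 0.12, limma adjusted p = 0.0780). Gata2 (ENSMUSG00000015053, chr6:88193891-88207032, plus strand) averaged 4.84 ± 0.53 and 6.48 ± 1.23 FPKM (SD, n = 3), and its groups overlapped (limma adjusted p = 0.129). Tal1 (ENSMUSG00000028717, chr4:115056426-115071755, plus strand) had a log2 fold change of 0.04 (SE 0.13) and Mef2c (ENSMUSG00000005583, chr13:83504034-83667080, plus strand) of -0.14 (SE 0.13), with adjusted p = 0.865 and 0.458 in limma. Osteoblast markers moved with the same comparison: their summed level ran from 217 to 760 FPKM in mpECs and from 43.4 to 58.0 FPKM in bmECs, and 3 of 6 were called lower. Chondrocyte sums were 15.4 to 20.1 and 0.01 to 0.25 FPKM, with 3 of 6 called lower. Neutrophil marker sums were 9791 to 23202 and 7794 to 11284 FPKM, with 0 of 6 called. Erythroid sums were 10992 to 20129 and 17098 to 22701 FPKM with 1 marker called higher, B cell sums 151 to 288 and 144 to 168 FPKM with 1 called lower, and macrophage sums 1140 to 1974 and 1015 to 1293 FPKM with 1 called each way. Progenitor sums were 28.5 to 44.7 and 23.1 to 28.6 FPKM with 1 called lower, and T cell sums 7.60 to 12.3 and 21.05 to 26.9 FPKM with 1 called higher. Lck, at 8.14 and 22.2 FPKM on average, was the only 1 of the 6 T cell markers high enough to be tested. Cd3e, Cd3d and Cd3g averaged lower in bmECs (0.54 and 0.26, 1.06 and 0.61, 0.49 and 0.44 FPKM). Cd4 and Cd8a averaged higher there (0.24 and 0.42, 0 and 0.13 FPKM). Megakaryocyte sums, of 77.5 to 327 and 79.2 to 471 FPKM, overlapped with 0 called, as did mast cell and basophil sums, of 25.7 to 108 and 13.5 to 74.4 FPKM. Their part in these differences was not tested, and in bulk RNA fewer cells of a type and less RNA per cell cannot be told apart.

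The comparison of the libraries labelled Yap1/Taz iΔEC with their controls asks what loss of the Hippo effectors does to bone ECs. None of the 10 members passed the test in either direction, where 1.31% of the 11320 genes tested did. At an unadjusted p under 0.05 there were 4 members, Elk3, Ets2, Gata2 and Lyl1, against 17.9% of all genes. Under the stricter rule 1 gene passed (0.00883%), which was not a member. With voom on recovered reads 1 member passed, as did 386 of the 11310 genes tested. The log2 fold changes ran from -0.46 to 0.49, with a median of 0.17 against -0.0047 over all genes. In this table Wwtr1 went against the label, so directions are given for the libraries as labelled.

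Elk3 came nearest to the threshold. It measured 34.6, 36.8 and 41.2 FPKM in controls and 48.6, 51.6 and 51.4 FPKM in the libraries labelled Yap1/Taz iΔEC, without overlap (log2 fold change 0.42, SE 0.10, limma adjusted p = 0.0654). Voom on recovered reads gave adjusted p = 0.0359 and estimated library weights 0.0253. These were the only 2 of 15 other settings under 0.05, and the adjusted p reached 0.266 among the rest. Lyl1 measured 46.1, 55.0 and 55.7 FPKM in controls and 44.5, 32.0 and 37.0 FPKM in the other group, again without overlap (log2 fold change -0.46, SE 0.13, limma adjusted p = 0.109). Library 1 of the labelled iΔEC group was the nearest to the controls, and without it the adjusted p was 0.0453. Over 15 other settings the adjusted p of Lyl1 was under 0.05 in 2 and reached 0.373.

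Ets2 also kept its groups apart, with 44.5, 40.9 and 36.2 FPKM in controls and 44.7, 55.1 and 57.0 FPKM in the other group (log2 fold change 0.36, SE 0.12, limma adjusted p = 0.162). The lowest library of the second group and the highest control differed by less than the spread within either group. Gata2 varied most among replicates, with 15.1, 27.7 and 22.6 FPKM in controls and 24.8, 32.1 and 34.1 FPKM in the other group, and its groups overlapped (log2 fold change 0.49, SE 0.20, limma adjusted p = 0.237). Tal1 averaged 26.1 ± 1.71 and 30.4 ± 1.99 FPKM (SD, n = 3) with separate groups and a limma adjusted p of 0.289. The groups of Erg, Fli1, Ets1, Lmo2 and Mef2c overlapped, and their log2 fold changes lay between -0.03 and 0.17. In all, 4 of 10 members had separate groups, as had 23.6% of all genes. Endothelial marker sums were 359 to 369 FPKM in controls and 419 to 496 FPKM in the other group, with 0 of 6 markers called, while osteoblast sums were 27.6 to 40.2 and 6.98 to 19.6 FPKM with 2 of 6 called lower. B cell sums were 253 to 304 and 212 to 217 FPKM, apart between the groups as Lyl1 was, though 0 of 6 markers were called. Megakaryocyte sums were 159 to 178 and 174 to 196 FPKM with 1 marker called higher. Mast cell and basophil sums were 37.7 to 48.3 and 41.6 to 53.1 FPKM and T cell sums 19.8 to 29.4 and 23.3 to 26.2 FPKM, with 0 called in either list. Progenitor sums were 320 to 355 and 309 to 321 FPKM, erythroid sums 2315 to 3001 and 2458 to 3610 FPKM, neutrophil sums 1910 to 2503 and 1516 to 3576 FPKM, and macrophage sums 1185 to 1656 and 1124 to 1260 FPKM, with 0 called in these 4 lists. Their part in these values was not tested.

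**Figure D2:**
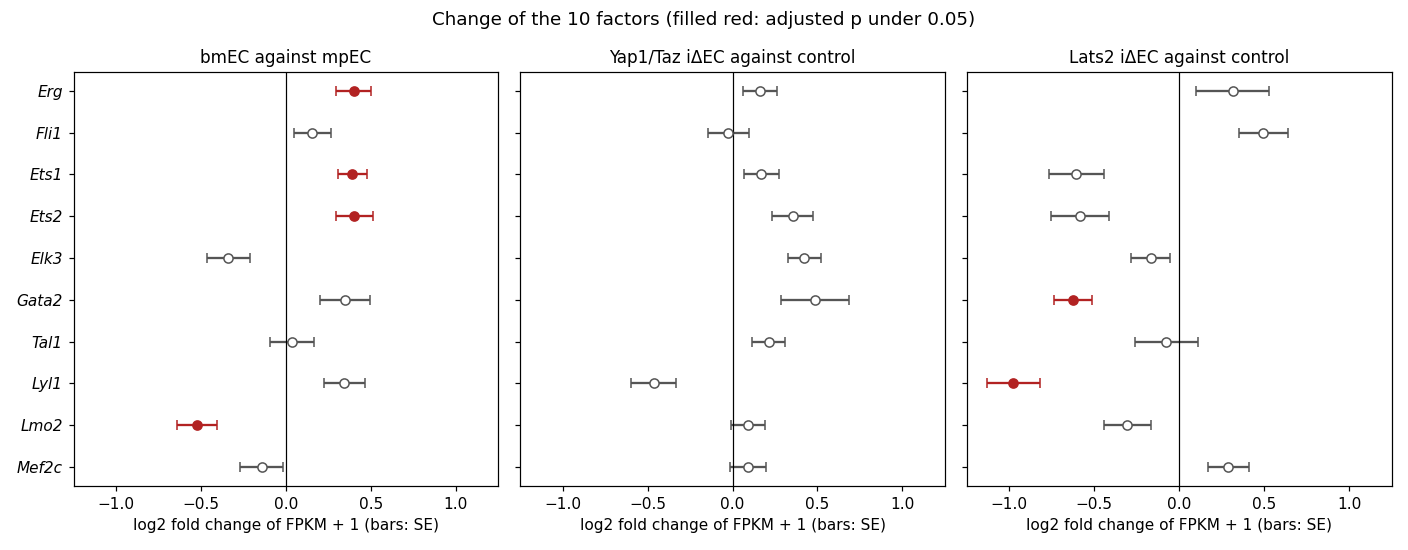
Log2 fold change of FPKM + 1 for the 10 factors in the 3 comparisons (points, with SE bars); filled red points have a limma adjusted p under 0.05. Of the factors, 4 are filled for bmECs against mpECs, 0 for the libraries labelled Yap1/Taz iΔEC and 2, Gata2 and Lyl1, for Lats2 iΔEC.

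The Lats2 comparison asks what loss of a kinase upstream of Yap1 and Taz does. Gata2 and Lyl1 fell in the Lats2 iΔEC libraries, and the other 8 members did not pass the test. Of all 12451 genes tested 21.8% were called, and 9.98% of all genes were called lower, so 2 of 10 lower members stand against about 1 in 10 genes. The members' median log2 fold change was -0.24, that of all genes -0.0031. The groups of 8 members did not overlap, but with 2 libraries a side this held for 68.2% of all genes. At an unadjusted p under 0.05 there were 5 members, against 38.6% of all genes, and 0 members passed the stricter rule, against 2.06%.

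Gata2, which keeps blood stem cells and is active in ECs too, measured 31.5 and 32.2 FPKM in controls and 20.6 and 20.02 FPKM in Lats2 iΔEC libraries. Replicates were far closer to each other than the groups were. It fell by 0.62 on the log2 scale (SE 0.11, 0.649 of the control level of FPKM + 1, limma adjusted p = 0.0217), with 420 to 1034 recovered reads behind each value. Lyl1, the paralogue of Tal1, measured 5.92 and 6.72 FPKM in controls and 2.65 and 2.79 FPKM in Lats2 iΔEC libraries. It fell by 0.97 on the log2 scale (SE 0.16, 0.509 of the control level of FPKM + 1, limma adjusted p = 0.0175). The group means of FPKM itself were 6.32 and 2.72. These are low counts, of 53 and 72 recovered reads in controls and 18 and 25 in Lats2 iΔEC libraries. Tal1, at 2.94 and 3.69 FPKM in controls and 3.27 and 2.89 FPKM in Lats2 iΔEC libraries, overlapped between groups (log2 fold change -0.08, SE 0.19, limma adjusted p = 0.792). Without Lats2 iΔEC library 2 the adjusted p was 0.0604 for Gata2 and 0.0585 for Lyl1. Without either control library the 2 values were 0.146 to 0.176, and then no gene of the table was called by limma although 2724 and 2878 had an unadjusted p under 0.05.

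Gata2 and Lyl1 are also transcribed in blood cells, and marker sums of most of those cells were lower in the same libraries. Summed erythroid markers ran from 1210 to 1495 FPKM in controls and from 136 to 576 FPKM in Lats2 iΔEC libraries, with 3 of 6 called lower. B cell marker sums were 88.7 to 102 and 27.3 to 32.8 FPKM with 5 of 6 called lower, and neutrophil sums 1478 to 2223 and 564 to 701 FPKM with 4 of 6 called lower. Macrophage sums were 544 to 652 and 73.6 to 299 FPKM, and megakaryocyte sums 29.9 to 112 and 9.72 to 12.1 FPKM, with 1 marker called lower in each list. T cell sums were 11.3 to 11.6 and 3.42 to 5.62 FPKM, also with 1 marker called lower. The hematopoietic progenitor sum went the other way, from 21.4 to 26.0 FPKM in controls to 35.0 to 37.5 FPKM, with 1 of 6 called in each direction. Its Kit averaged 12.7 and 32.0 FPKM and its Myb 3.12 and 0.29 FPKM. Mural and stromal sums were 31.4 to 40.0 and 62.5 to 72.5 FPKM, with 3 of 6 called higher. Endothelial sums were 1406 to 1469 and 1294 to 1421 FPKM, with 1 of 6 called higher and 2 lower. The part of blood cells in the fall of Gata2 and Lyl1 was not tested.

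Paralogous ETS genes that lie side by side had values on opposite sides in the Lats2 table. Ets1 and Fli1 are neighbouring protein-coding genes on chromosome 9 and point apart, as do the neighbours Ets2 and Erg on chromosome 16. Ets1 measured 123 and 132 FPKM in controls and 95.7 and 73.1 FPKM in Lats2 iΔEC libraries (log2 fold change -0.60, SE 0.16, limma adjusted p = 0.0549). Ets2 measured 89.2 and 99.4 FPKM against 71.7 and 54.5 FPKM (log2 fold change -0.58, SE 0.17, limma adjusted p = 0.0640). For both, Lats2 iΔEC library 2 was the lowest, and the groups did not overlap. Voom on recovered reads called both lower, at adjusted p = 0.0283 and 0.0348. The main fit and some of the 13 other settings called neither. Over those settings the log2 fold change ran from -0.80 to -0.41 for Ets1 and from -0.78 to -0.39 for Ets2.

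Fli1 values lay the other way, with 40.01 and 48.2 FPKM in controls and 58.9 and 66.0 FPKM in Lats2 iΔEC libraries (log2 fold change 0.50, SE 0.14, limma adjusted p = 0.0645, voom 0.0421). Most of the 13 other settings did not call Fli1, and its log2 fold change ran from 0.36 to 0.63 over them. Erg measured 10.03 and 14.6 FPKM in controls and 13.8 and 17.1 FPKM in Lats2 iΔEC libraries, with overlap (log2 fold change 0.31, SE 0.22, limma adjusted p = 0.334). Within a library the ratio of Ets1 to Fli1 was 3.08 and 2.74 in controls and 1.63 and 1.11 in Lats2 iΔEC libraries. The ratio of Ets2 to Erg was 8.89 and 6.79 in controls and 5.21 and 3.19 in Lats2 iΔEC libraries. Both ratios were lower in both Lats2 iΔEC libraries. They were formed after the values had been seen and carry no test. In mpECs the same ratios were 3.45 ± 0.03 and 4.76 ± 0.86, and in bmECs 4.06 ± 0.29 and 4.64 ± 0.23 (SD, n = 3).

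The ratio of Lyl1 to its paralogue Tal1 was read in the same way. It was 10.1 ± 0.88 in mpECs and 12.5 ± 1.63 in bmECs (SD, n = 3). In the second table it was 1.76, 1.98 and 2.29 in controls and 1.51, 0.978 and 1.27 in the libraries labelled Yap1/Taz iΔEC. In the last it was 2.01 and 1.82 in controls and 0.811 and 0.965 in Lats2 iΔEC libraries. Every library of the last 2 tables lay below every mpEC and bmEC library, and in each of those tables the control values lay above the others.

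**Figure D3:**
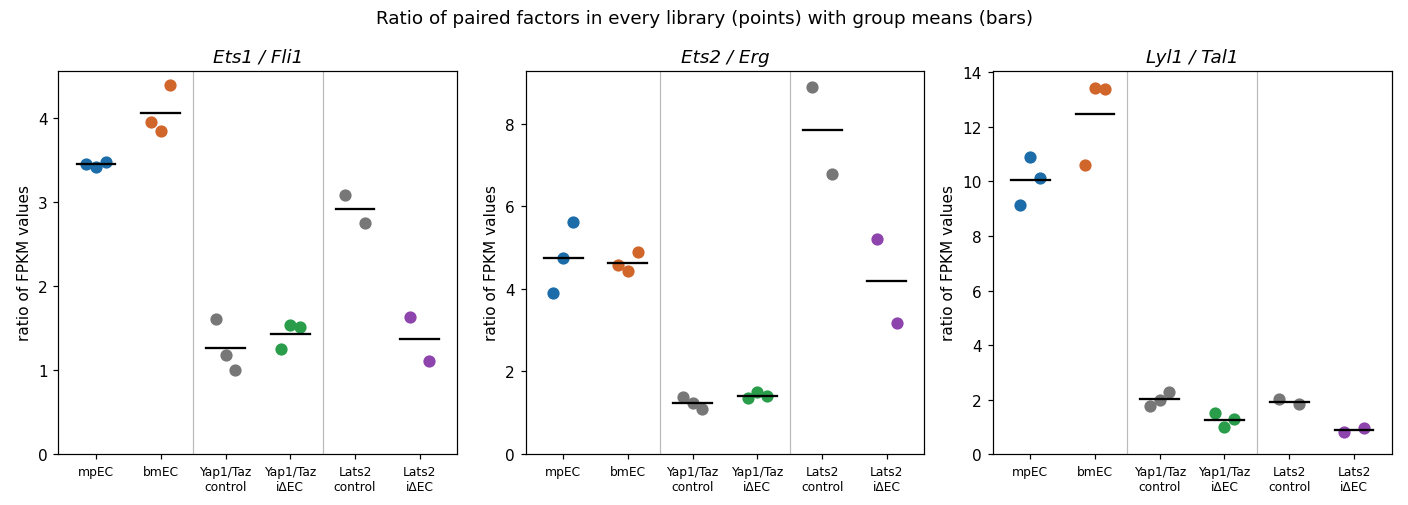
Ratio of FPKM values for 3 pairs of factors in every library (points) with group means (bars), on axes from 0. In the Lats2 table all 3 ratios are lower in both Lats2 iΔEC libraries than in both controls, and the Lyl1 to Tal1 ratio is highest in mpECs and bmECs.

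The remaining members of the Lats2 table did not pass the test. Elk3 averaged 83.3 ± 5.21 FPKM in controls and 74.0 ± 1.39 FPKM in Lats2 iΔEC libraries, Lmo2 45.0 ± 4.47 and 36.2 ± 3.77 FPKM, and Mef2c 18.6 ± 0.51 and 23.0 ± 1.61 FPKM (SD, n = 2). Their groups did not overlap, and their limma adjusted p values were 0.336, 0.176 and 0.147.

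Other genes of the same families were read from lists. Of 21 further ETS factors, 12 to 14 were expressed enough to be tested. In bmECs Etv5 rose from 2.59 ± 0.26 to 4.15 ± 0.28 FPKM and Etv1 fell from 3.47 ± 0.37 to 1.14 ± 0.16 FPKM (SD, n = 3, limma adjusted p = 0.0135 and 0.000900). None of 14 was called in the libraries labelled Yap1/Taz iΔEC. In Lats2 iΔEC libraries Etv4, a growth factor responsive ETS gene, rose from 0.08 ± 0.11 to 3.02 ± 0.40 FPKM (SD, n = 2, limma adjusted p = 0.0125). Spi1 and Spib, which serve myeloid and B cells, fell from 6.66 ± 1.13 to 2.11 ± 1.19 FPKM and from 10.2 ± 3.75 to 2.27 ± 0.21 FPKM (SD, n = 2, limma adjusted p = 0.0357 and 0.0152).

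Of 7 other GATA factors and FOG cofactors, 3 were tested in each comparison. In bmECs Gata3 rose from 2.58 ± 0.18 to 10.9985 ± 0.999 FPKM and Zfpm2, which encodes the GATA cofactor FOG2, from 3.16 ± 0.44 to 6.44 ± 0.52 FPKM (SD, n = 3, limma adjusted p = 4.64e-05 and 0.00194). In Lats2 iΔEC libraries Gata1, the erythroid and megakaryocyte member, fell from 4.19 ± 0.91 to 0.27 ± 0.38 FPKM, and Zfpm2 fell from 8.72 ± 0.81 to 3.73 ± 1.05 FPKM (SD, n = 2, limma adjusted p = 0.0150 and 0.0253). None of 3 was called in the libraries labelled Yap1/Taz iΔEC. Gata1 is also 1 of the 6 erythroid markers.

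Among 15 partners of Tal1, Lyl1 and Lmo2, Id2 was called in all 3 comparisons under the main settings. Id2 encodes a helix-loop-helix protein without a DNA-binding part, which takes E proteins away from factors such as TAL1. Id2 rose in bmECs from 152 ± 11.1 to 356 ± 10.01 FPKM and in the libraries labelled Yap1/Taz iΔEC from 61.7 ± 3.75 to 87.6 ± 3.57 FPKM (SD, n = 3, limma adjusted p = 6.87e-05 and 0.0406). The second call was lost without a filter on low values and without library 2 or 3 of the labelled iΔEC group. Under each of these settings 0 genes of that comparison were called higher. In Lats2 iΔEC libraries Id2 fell from 101 ± 8.88 to 35.7 ± 7.07 FPKM (SD, n = 2, limma adjusted p = 0.0105). Id1 fell in bmECs by 0.75 on the log2 scale (SE 0.16, limma adjusted p = 0.0118). Ssbp2, a stabilizer of LDB1, rose in bmECs by 0.88 (SE 0.13) and fell by 1.63 on the log2 scale in Lats2 iΔEC libraries (SE 0.23, limma adjusted p = 0.00222 and 0.0134). Lmo1 rose in Lats2 iΔEC libraries from 8.45 ± 2.92 to 22.9 ± 1.27 FPKM (SD, n = 2, limma adjusted p = 0.0190). In all 2 of 13 were called higher and 1 lower in bmECs, 1 of 14 higher in the libraries labelled Yap1/Taz iΔEC, and 1 of 13 higher and 2 lower in Lats2 iΔEC libraries. Of 7 further MEF2 factors and class IIa deacetylases, 5 or 6 were tested, and limma called 0 in each comparison.

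The last list held 24 endothelial genes with known ETS or GATA control, among them all 6 endothelial markers. In bmECs 4 of 23 were called higher and 8 lower, against 13.0% and 10.5% of all genes. The list median was -0.10 on the log2 scale against -0.00068 over all genes. Kdr, the main VEGF receptor, rose from 126 ± 21.0 to 200 ± 6.46 FPKM (SD, n = 3). Sox7, Emcn and Tie1 fell by 0.95, 0.73 and 0.70 on the log2 scale (limma adjusted p = 0.0129, 0.00128 and 0.0099998). Erg, Ets1 and Ets2, which rose in the same comparison, stood beside listed genes that moved both ways.

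In the libraries labelled Yap1/Taz iΔEC 2 of 23 were called higher and 0 lower, against 0.883% and 0.424% of all genes. Cldn5, a tight junction gene, rose from 84.4 ± 11.3 to 180 ± 16.8 FPKM and Sox7 from 3.15 ± 1.29 to 8.27 ± 2.00 FPKM (SD, n = 3, limma adjusted p = 0.0117 and 0.0423). Both calls were lost without a filter on low values and without library 2 or 3 of the labelled iΔEC group, where 0 genes were called higher. The list median was 0.33 on the log2 scale, with 21 of 23 values positive, against a median of -0.0047 over all genes. The 6 endothelial markers in this list summed to 359 to 369 FPKM in controls and 419 to 496 FPKM in the other group. The part of the endothelial share of the RNA in this shift was not tested.

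In Lats2 iΔEC libraries 5 of 24 were called higher and 2 lower, against 11.8% and 9.98% of all genes. Angpt2, a ligand of the Tie2 receptor made by activated ECs, rose from 8.11 ± 0.07 to 325 ± 217 FPKM, and Vwf from 3.86 ± 2.83 to 20.4 ± 5.03 FPKM (SD, n = 2, limma adjusted p = 0.00817 and 0.0253). Tek, which encodes Tie2, fell from 214 ± 1.08 to 86.0 ± 29.4 FPKM, and Kdr from 331 ± 9.92 to 173 ± 32.4 FPKM (SD, n = 2, limma adjusted p = 0.0217 and 0.0204). The Lats2 iΔEC replicates differed widely for Angpt2, but both lay above both controls.

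**Figure D4:**
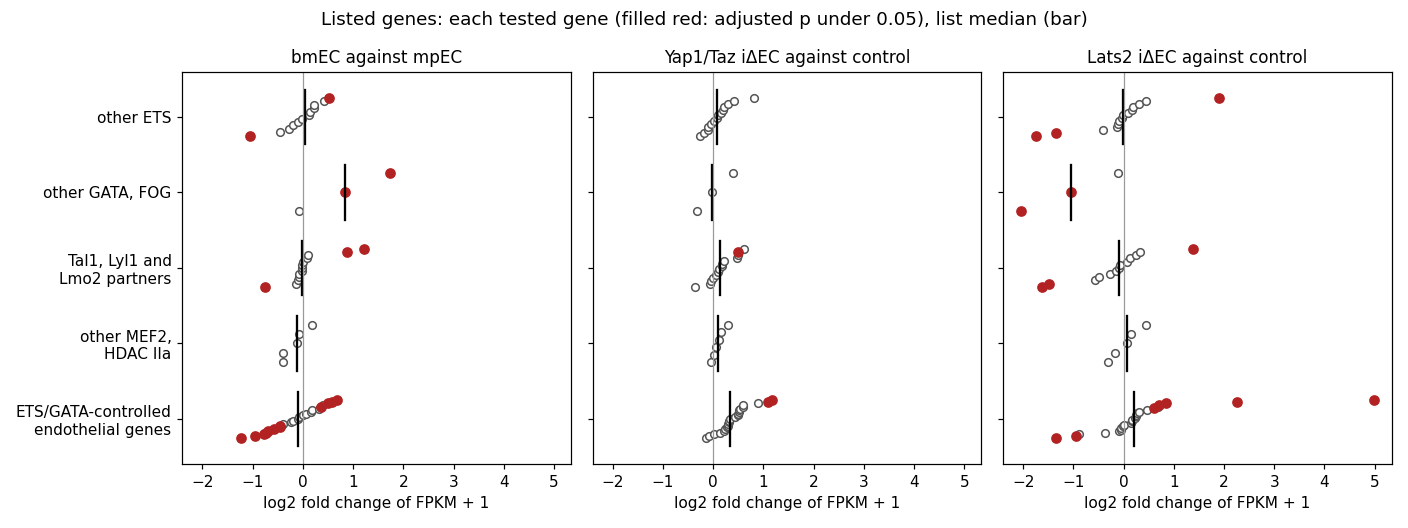
Log2 fold change of FPKM + 1 for every tested gene of the 5 gene lists (points; filled red, limma adjusted p under 0.05) with the list median (bars), in the 3 comparisons. Called genes lie on both sides of 0 for the endothelial list in bmECs and in Lats2 iΔEC libraries, and the MEF2 and deacetylase list has no filled point.

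Genes whose levels followed a member most closely over all 16 libraries were named for the 3 members that varied most. Each gene's log2(FPKM + 1) values were centred on the mean of their own table, and likeness was the root mean square difference over 4946 or 4947 genes of at least 5 FPKM in every table. The named genes were picked on these same libraries. Their changes and adjusted p values below therefore follow in large part from the pick and are not independent evidence. Lyl1 varied most (SD 0.34), and Ccdc137, Gypc and Vps11 were nearest, at differences of 0.15, 0.17 and 0.17. Gypc encodes a red cell membrane glycoprotein that other cells also make. It rose in bmECs from 82.4 ± 1.42 to 99.9 ± 0.20 FPKM (SD, n = 3) and fell in Lats2 iΔEC libraries from 79.4 ± 8.11 to 36.4 ± 7.42 FPKM (SD, n = 2, limma adjusted p = 0.0221 and 0.0169). Gata2 (SD 0.32) was most like Zfp36l1, Numb and Sh3gl1, at 0.11, 0.14 and 0.18. Zfp36l1, an RNA decay factor, fell in Lats2 iΔEC libraries from 79.1 ± 2.27 to 51.3 ± 3.98 FPKM, and Numb, a Notch regulator, from 34.2 ± 1.06 to 19.9 ± 2.87 FPKM (SD, n = 2, limma adjusted p = 0.0253 and 0.0237). Ets2 (SD 0.27) was most like Dock1, Lnx2 and Ggta1, at 0.09, 0.09 and 0.10. Tal1 and Mef2c varied least of the members about their table means, with SDs of 0.12 and 0.15.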

How the data were processed

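The authors sorted bone ECs, made stranded total RNA libraries, aligned reads with TopHat to GRCm38 (mm10) and counted them with HTSeq 0.6.1, as the study's methods and the submitters' processing notes say. The deposited values used here are FPKM, normalized by the authors in 3 separate tables, and how FPKM was computed is not given in the sources used here. For each table, log2(FPKM + 1) was fitted, for genes that averaged 1 FPKM or more, with limma 3.58.1 (R 4.3.3, lmFit and eBayes with a trend, two-sided), and p-values were adjusted by Benjamini-Hochberg over all genes tested. A gene was called at an adjusted p under 0.05. A fold change on this scale understates that of low genes. The code was tested on simulated data with an assumed spread between libraries. A true log2 change of 0.5 was called in 12.1% of changed genes for the first table, 20.9% for the second and 0% for the last. For a change of 1.0 it was 89.6%, 98.5% and 52.2%. A member that did not pass the test may therefore still differ by such an amount.

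Reads were recovered from FPKM and GENCODE M21 exon lengths. Of values up to 20 reads, 62.5% to 70.1% per library came out within 0.02 of a whole number, where 4% would by chance, so recovered reads entered only an alternative (limma-voom). Alternatives changed the scaling, the filter on low values, the pseudocount (0.1), trend, weights, block, threshold and libraries. Rows with repeated names in the Lats2 table, 4 in all, were left out. Replicates all differed by more than counting noise. The members and gene lists were chosen with earlier results of these data known, and cell markers named one by one were picked after their values were seen. The named genes were all members, the targeted genes, every called gene of a list or, beyond 4, the 4 largest changes at 5 FPKM or more, and the 3 genes nearest to each of the 3 most variable members.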

Additional observations from a re-analysis of the deposited data

How the results depend on the processing

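For the members, 125 of 149 values of the bmEC comparison under other settings kept their direction and their side of the threshold, as did 123 of 141 in the Lats2 table and 163 of 179 in the second table, targeted genes included; the cause of the others was not tested. Most members were not called in the main fit, and such a member counts as kept whenever it stays uncalled with the same sign. Of the called ones, Erg, Ets1, Ets2 and Lmo2 kept their bmEC call in 11, 12, 7 and 13 of 15 other settings. In bmECs 1 member was called higher under quantile normalization, and estimated library weights called 2 lower. Of 11422 genes, 1474 were called higher under quantile normalization and 1379 lower with weights. At an adjusted p under 0.01 with an absolute log2 fold change over 0.5, 0 members were called higher or lower, with 1335 genes called in the bmEC comparison, 1 in the second table and 257 in the Lats2 table, where again 0 members were lower. Leaving out 1 library at a time gave 0 to 3 members higher and 0 to 2 lower in bmECs, with 1817 to 2357 genes called.
In the second table estimated weights called 2 members higher and 1 lower and voom 1 higher. Among all genes, weights called 460 higher and 233 lower of 11320, and voom 271 higher of 11310. Genes called numbered 1 without a filter, 17 without a trend, 693 with weights and 386 with voom, against 148. Without 1 library they ranged from 1 to 293, with 0 to 1 members lower. Wwtr1 had a log2 fold change of 0.78 without a filter (adjusted p = 0.0679) or a trend (0.0570), and of 0.72 to 0.89 without 1 library. Yap1 ranged from -0.14 to 0.077 and Fli1 from -0.15 to 0.068 without 1 library, across 0.
In the Lats2 table a 5 FPKM filter called 1 member higher, voom 1 higher and 4 lower, and quantile normalization 4 lower. Among all genes, the filter called 1382 of 8046 higher and quantile normalization 1339 of 12451 lower. Voom called 1626 higher and 1534 lower of 11710. Genes called were 1389 without a filter, and 0 to 2701 without 1 library, with 0 to 4 members lower; there the lone library of a group was assumed to vary like the other group. Without 1 library, Lats2 ranged from -0.31 to -0.27, Tal1 from -0.20 to 0.049 there and from -0.025 to 0.13 in bmECs, and Mef2c from -0.23 to 0.0013 in bmECs. Over all settings Lats2 ranged from -0.33 to -0.27.
Same-numbered replicates share only a number: their deviations correlated at 0.31, 0.09 and 0.10 in the first table, -0.18, -0.12 and -0.16 in the second and 0.07 in the last. Of these samples, not every one correlated best with its own number. With the number as a replicate block 4 members were called higher and 1 lower in bmECs (Lyl1 adjusted p = 0.0415), and 3072, 45 and 2655 genes were called in the 3 tables, against 2682, 148 and 2711. Depth limits Lyl1 in the Lats2 table, with as few as 18 recovered reads.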
